A study of Arabidopsis thaliana with 12 samples.

Results

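The 10 genes described here encode the cellulose synthase complex of Arabidopsis thaliana and 2 proteins that act with it. They were chosen by locus ID: CESA1 (AT4G32410), CESA2 (AT4G39350), CESA3 (AT5G05170), CESA5 (AT5G09870) and CESA6 (AT5G64740) of the primary wall, CESA4 (AT5G44030), CESA7 (AT5G17420) and CESA8 (AT4G18780) of the secondary wall, and the partners KOR1 (AT5G49720) and COB (AT5G60920). All 10 are among the 18366 genes of the table that compares pfd4 with wild type (WT) and the 19397 genes of the table that compares 6x_pfd with WT. RNA was sequenced from whole Col-0 seedlings grown in vitro, 3 samples in each of 4 groups. The pfd4 and WT seedlings were 14 days old, with the growth labels LD and ZT1, and the 6x_pfd and WT seedlings were 7 days old, with the growth label LL. The labels name the genotypes pfd4 and 6x_pfd without alleles, give the word mock in the titles of the 14-day samples with no treatment described, and do not say whether seedlings were pooled. PFD4, the prefoldin gene that names the first mutant, had a log2 fold change of -1.99 ± 0.17 in pfd4 and -3.78 ± 0.19 in 6x_pfd (± is the standard error, SE) per the authors' deposited table. Every fold change is given as mutant over WT.

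Cellulose is spun at the plasma membrane by rosette complexes of CESA glycosyltransferases that move along cortical microtubules. In growing cells the complex holds CESA1, CESA3 and a CESA6-type subunit, for which CESA2, CESA5 and CESA6 partly substitute for each other. In xylem vessels and fibres, which lay down a thick secondary wall, the complex holds CESA4, CESA7 and CESA8, and loss of any of these collapses the xylem, hence their other names IRREGULAR XYLEM 5, 3 and 1. KOR1 is a membrane-bound endoglucanase needed for normal cellulose deposition, and COB is a membrane-anchored protein that orients microfibrils in expanding cells. Prefoldin is a chaperone that delivers unfolded tubulin and actin to the chaperonin CCT.

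The tables give 1 mean normalized count per gene over the 6 samples of a comparison and no value per library. The mean of each genotype was therefore implied from that mean and the fold change, and the replicate spread is known only through the SE of the fold change. For levels, counts were divided by coding length, so these values carry no error of their own and neighbours in the order cannot be tested against each other. The mean normalized counts of all genes summed to 29221246 in the pfd4 table and 32374115 in the 6x_pfd table.

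At 14 days in WT, KOR1 had the highest level at 5209 normalized counts per 1000 coding bases, followed by CESA1 at 3203, CESA3 at 2942, COB at 2731, CESA6 at 2402, CESA5 at 1924 and CESA2 at 1177. The secondary wall genes stood below all of these, with CESA4 at 226, CESA8 at 176 and CESA7 at 167 normalized counts per 1000 coding bases. In WT at 7 days the order was KOR1 at 8163, CESA1 at 5073, CESA3 at 4938, COB at 4599, CESA6 at 3414, CESA2 at 1681, CESA5 at 1449.5, CESA4 at 419.6, CESA7 at 334 and CESA8 at 318 normalized counts per 1000 coding bases. CESA5 and CESA2, and CESA7 and CESA8, changed places between the lists. Scaled to the total of all genes in the implied WT mean, as CPM, CESA4 stood at 25.02 CPM at 14 days and 40.8 at 7 days, CESA7 at 17.6 and 30.9, and CESA8 at 17.8 and 28.3. CESA1 stood at 355 and 495 CPM and CESA5, in the other order, at 211 and 139.9 CPM. The tables were normalized separately and age and growth label differ between them, so these pairs were not tested.

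**Figure D1:**
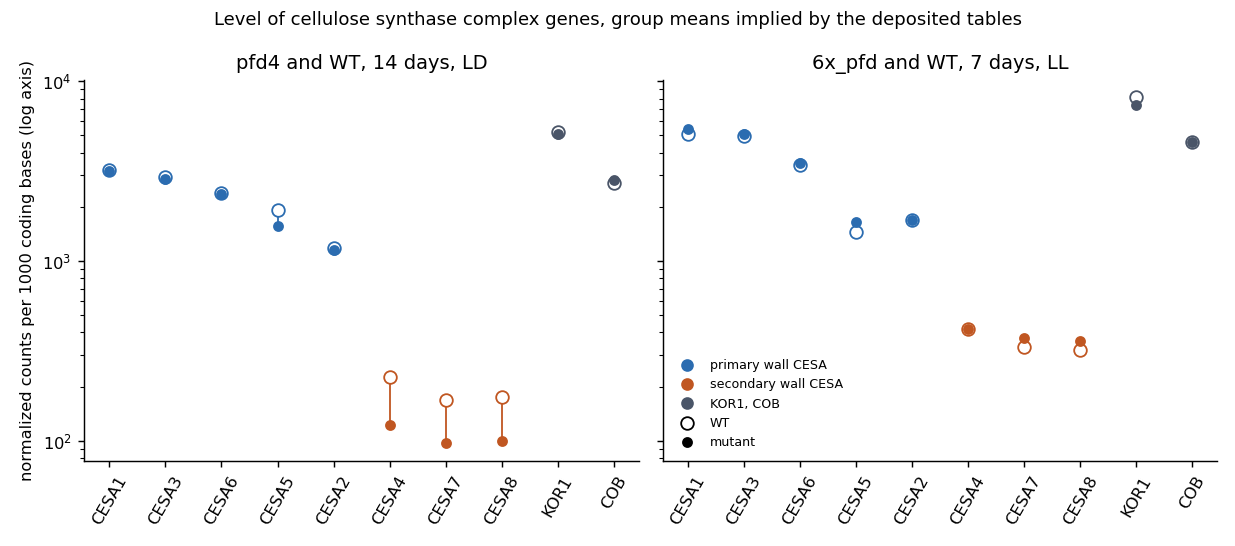
Implied group means in normalized counts per 1000 coding bases (log axis) for WT (open) and mutant (filled) in each experiment; each point is 1 implied mean of 3 samples, with no error available. The 3 secondary wall genes lie lowest, between 167 and 226 in WT at 14 days, and are the genes whose WT and pfd4 points separate most.

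In pfd4 the 3 secondary wall CESA genes were lower than in WT, by similar amounts, and the 5 primary wall CESA genes, KOR1 and COB did not pass the test. In bulk seedlings, fewer xylem cells and less of these RNAs per cell cannot be told apart. CESA4 fell from an implied mean of 733 normalized counts in WT to 397 in pfd4, a log2 fold change of -0.88 ± 0.20 (adjusted p = 0.000663) per the authors' deposited table. In percent it fell by 45.8%, with a 95% interval from -58.9% to -28.5%. CESA7 fell from 516 to 297 normalized counts, a log2 fold change of -0.80 ± 0.20 (adjusted p = 0.00197) per the authors' deposited table, and its level fell by 42.4%, with an interval from -56.0% to -24.6%. CESA8 fell from 521 to 295 normalized counts, a log2 fold change of -0.82 ± 0.18 (adjusted p = 0.000234) per the authors' deposited table, and its level fell by 43.4%, with an interval from -55.6% to -27.8%. The 3 intervals overlap along most of their length, and the fold changes differ from each other by less than 1 SE. Their log2 fold changes stood at the 0.817, 1.18 and 1.05 percentile of all genes of the pfd4 table, for CESA4, CESA7 and CESA8 in that order. These 3 of the 10 genes were called lower and none higher at an adjusted p below 0.05 per the authors' deposited table, against 7.75% of all 18363 tested genes called in either direction, 3.81% lower and 3.94% higher. Each of the 3 fold changes is larger than its SE by a factor of over 4. None reached an absolute log2 fold change of 1. None passed a test against a change of 25%, taken as a rise of 25% or a fall of the same log2 size. The adjusted p was 0.383 for CESA4, 0.8495 for CESA7 and 0.347 for CESA8, in DESeq2's form of that test with the deposited SE. These values are adjusted over all tested genes, and the 95% intervals above are not.

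**Figure D2:**
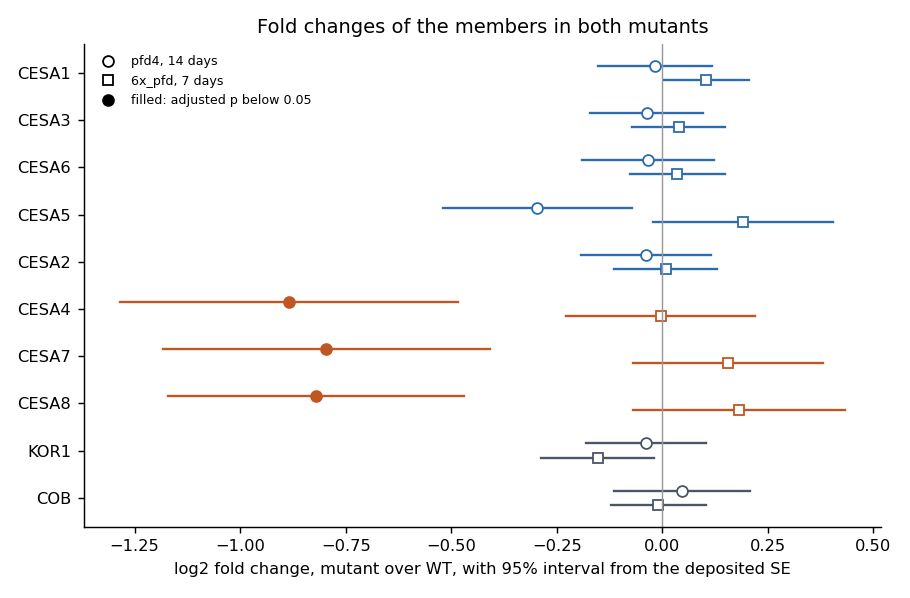
Log2 fold change of each member, mutant over WT, in pfd4 (circles) and 6x_pfd (squares), with the 95% interval from the deposited SE; filled symbols passed an adjusted p of 0.05. CESA4, CESA7 and CESA8 in pfd4 are the filled points, between -0.88 and -0.80, with intervals clear of 0, and their squares lie between -0.00 and 0.18.

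The SE of the secondary wall genes was large for their level. CESA4 had an SE of 0.204 per the authors' deposited table, where the median of the 4473 genes within 1.5 times its mean count was 0.117, and 97.3% of those genes had a smaller SE. For CESA7 the SE was 0.198 against a median of 0.129, and for CESA8 0.179 against 0.129, with 95.3% and 92.9% of genes of like level below them. Among the primary wall genes CESA5 alone had an SE above the median for its level, 0.115 against 0.0950 per the authors' deposited table, while CESA1 at 0.0689 and CESA3 at 0.0686 were low for theirs, with 4.83% and 4.28% of such genes below them. In the 6x_pfd table the secondary wall genes again had an SE above the median for their level, with 78.1%, 76.6% and 84.1% of genes of like level below CESA4, CESA7 and CESA8. A larger SE means that the libraries within a group differed more from each other for these genes, and which library did so is not known from the tables.

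**Figure D3:**
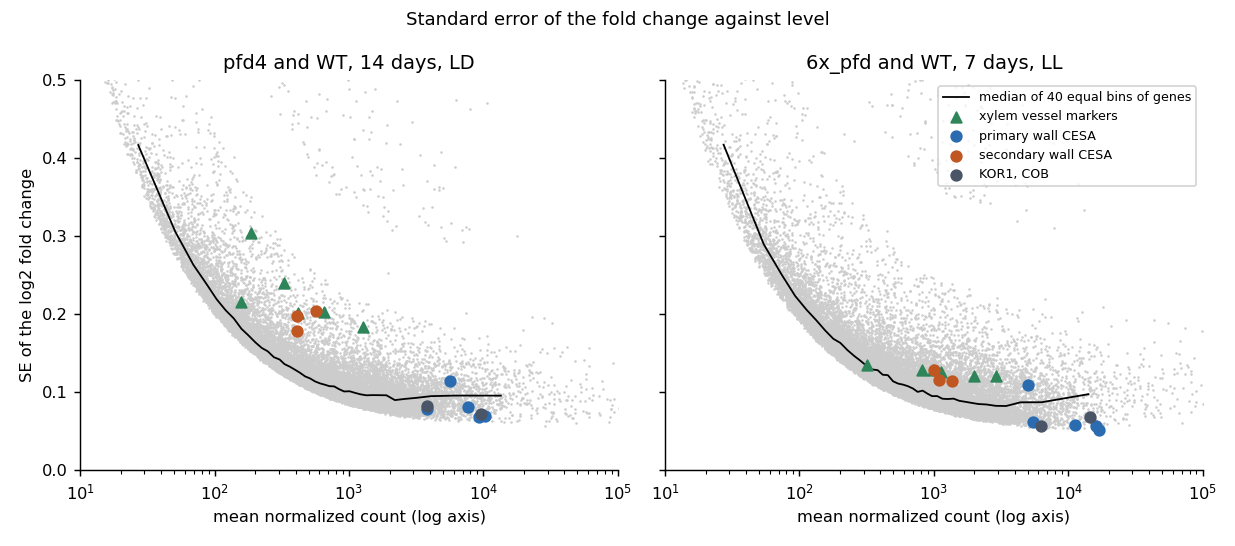
SE of the log2 fold change against mean normalized count (log axis) for the genes within the axes (grey), with the median of 40 equal bins of all genes as a line. The SE axis ends at 0.5, and the genes with the lowest counts lie outside the count axis. In the pfd4 panel CESA4, CESA7 and CESA8 lie above the line at 0.204, 0.198 and 0.179 together with the xylem vessel markers, and CESA1 and CESA3 lie below it.

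The 250 bases before the annotated start of the 3 genes that fell together are shown beside those of CESA1, a primary wall gene that did not. The windows are from RefSeq on build TAIR10.1, in the direction of the gene: chr5:17714140-17714389 (plus strand) for CESA4, chr5:5741501-5741750 (minus strand) for CESA7, chr4:10316887-10317136 (minus strand) for CESA8 and chr4:15646845-15647094 (minus strand) for CESA1. The CESA4 window overlaps the neighbouring gene AT5G44020, which is on the same strand and reaches past the annotated start of CESA4. How much of that window AT5G44020 covers, and whether the marked matches lie in it, is not given here. The CESA8 window overlaps the long noncoding RNA gene AT4G06845. Capitals mark matches on either strand to the secondary wall MYB-responsive element (SMRE) or the tracheary element regulating element (TERE).
CESA4: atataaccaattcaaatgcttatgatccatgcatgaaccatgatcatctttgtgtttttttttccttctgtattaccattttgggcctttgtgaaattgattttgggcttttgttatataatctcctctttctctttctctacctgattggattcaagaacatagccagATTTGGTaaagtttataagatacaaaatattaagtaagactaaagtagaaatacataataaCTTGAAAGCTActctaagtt
CESA7: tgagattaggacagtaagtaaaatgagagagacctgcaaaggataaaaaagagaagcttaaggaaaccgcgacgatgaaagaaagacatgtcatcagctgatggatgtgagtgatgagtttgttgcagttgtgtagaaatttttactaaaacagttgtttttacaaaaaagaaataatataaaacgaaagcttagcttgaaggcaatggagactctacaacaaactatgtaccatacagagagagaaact
CESA8: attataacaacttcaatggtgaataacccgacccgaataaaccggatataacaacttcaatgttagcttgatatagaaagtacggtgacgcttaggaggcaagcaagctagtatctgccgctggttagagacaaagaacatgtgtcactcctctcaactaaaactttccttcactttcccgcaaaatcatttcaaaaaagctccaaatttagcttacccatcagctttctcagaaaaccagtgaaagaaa
CESA1: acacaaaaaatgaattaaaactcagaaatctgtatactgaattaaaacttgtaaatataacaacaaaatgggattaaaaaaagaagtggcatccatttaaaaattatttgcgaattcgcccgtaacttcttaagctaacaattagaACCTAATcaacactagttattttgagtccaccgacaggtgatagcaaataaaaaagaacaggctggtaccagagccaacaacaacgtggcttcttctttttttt

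SMRE was searched as its 8 words of 7 bases, ACCAAAC or ACCAAAT or ACCAACC or ACCAACT or ACCTAAC or ACCTAAT or ACCTACC or ACCTACT, which are known as binding words of MYB46 and MYB83, the MYB switches of secondary wall formation. It was found in 4 of the 10 windows, those of CESA4, CESA1, CESA5 and COB, and in 29.4% of the 27443 windows of protein-coding genes. TERE, searched as CTTNAAAGCNA, was found in the CESA4 window alone among the 10 and in 0.368% of all windows. In the CESA4 window the SMRE match begins 81 bases and the TERE match 20 bases before the start, and they do not overlap. The windows of CESA7 and CESA8 held neither. The brassinosteroid response words CGTGTG or CGTGCG (6.71% of all windows) and the G-box CACGTG (6.49%) were in none of the 10 windows. These are matches of letters within 250 bases, and the 3 genes that fell together share none of the motifs searched there.

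The primary wall genes were close to WT in pfd4. CESA1 (-0.02 ± 0.07), CESA3 (-0.04 ± 0.07), CESA6 (-0.03 ± 0.08) and CESA2 (-0.04 ± 0.08) had 95% intervals that all lay between -0.19 and 0.12 on the log2 scale per the authors' deposited table. CESA5, which also makes the cellulose of seed coat mucilage, was the exception in size: its implied mean was 6177 normalized counts in WT and 5031 in pfd4, and its log2 fold change of -0.30 ± 0.11 had an unadjusted p = 0.00982 and an adjusted p = 0.0944 per the authors' deposited table, short of the threshold. KOR1 stood at -0.04 ± 0.07 and COB at 0.05 ± 0.08 per the authors' deposited table. The median log2 fold change was -0.04 for the 5 primary wall genes and -0.82 for the 3 secondary wall genes, beside -0.00 for all genes of the table. The intervals of the secondary wall genes end at -0.41 or below, and those of CESA1, CESA2, CESA3 and CESA6 begin at -0.19 or above, so the classes do not overlap apart from CESA5, whose interval runs from -0.52 to -0.07. The members of a class share their libraries, so no test was made over the class.

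In 6x_pfd no member passed. CESA4 stood at 1358 implied normalized counts in WT and 1354 in the mutant, a log2 fold change of -0.00 ± 0.11, per the authors' deposited table. CESA7 stood at 1029 and 1145 (0.15 ± 0.11) and CESA8 at 940 and 1066 (0.18 ± 0.13) per the authors' deposited table. Their 95% intervals began at -0.23, -0.07 and -0.07, above every value that the 3 genes took in pfd4. Among the primary wall genes CESA5 had the largest value, 0.19 ± 0.11 (adjusted p = 0.176), and CESA1 the smallest p, 0.10 ± 0.05 (unadjusted p = 0.0438, adjusted p = 0.109), per the authors' deposited table. CESA3 was at 0.04 ± 0.06, CESA6 at 0.04 ± 0.06 and CESA2 at 0.01 ± 0.06 per the authors' deposited table. KOR1 was at -0.15 ± 0.07 (unadjusted p = 0.0244, adjusted p = 0.0679) and COB at -0.01 ± 0.06 per the authors' deposited table. So 0 of the 10 genes passed the deposited DESeq2 test and 2 had an unadjusted p under 0.05, against 33.6% of all 19380 tested genes called in this comparison, 16.9% higher and 16.8% lower. No other tool could be run. The scaling matters for small changes of this kind, and fold changes were also centred on equal totals. The totals are the implied group means summed over all genes listed, not library sizes, and their log2 ratio in 6x_pfd was -0.0783. With equal totals CESA1 (0.18, adjusted p = 0.00201) and CESA5 (0.27, adjusted p = 0.0393) passed, and CESA4 and COB moved to 0.07 each. Over all genes 7040 were then called, 4652 of them higher. The median was 0.04 for the primary wall genes and 0.15 for the secondary wall genes, beside 0.00 for all genes.

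The effects in the 2 mutants differed for 4 of the 10 genes, by a Wald test (two-sided) of the one effect against the other over the 18035 genes tested in both tables, of which 23.8% were called. The log2 fold change in 6x_pfd minus that in pfd4 was 1.002 ± 0.22 for CESA8 (adjusted p = 7.59e-05), 0.95 ± 0.23 for CESA7 (adjusted p = 0.000381), 0.88 ± 0.23 for CESA4 (adjusted p = 0.00155) and 0.49 ± 0.16 for CESA5 (adjusted p = 0.0124). For CESA5 neither mutant differed from its own WT at the threshold, and the values lay on opposite sides of 0. For the other 6 genes the difference did not pass, and its 95% intervals lay between -0.31 (the lower end for KOR1) and 0.29 (the upper end for CESA1). The comparisons share no library, and the mutant genotype, the age and the growth condition cannot be told apart in this test.

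**Figure D4:**
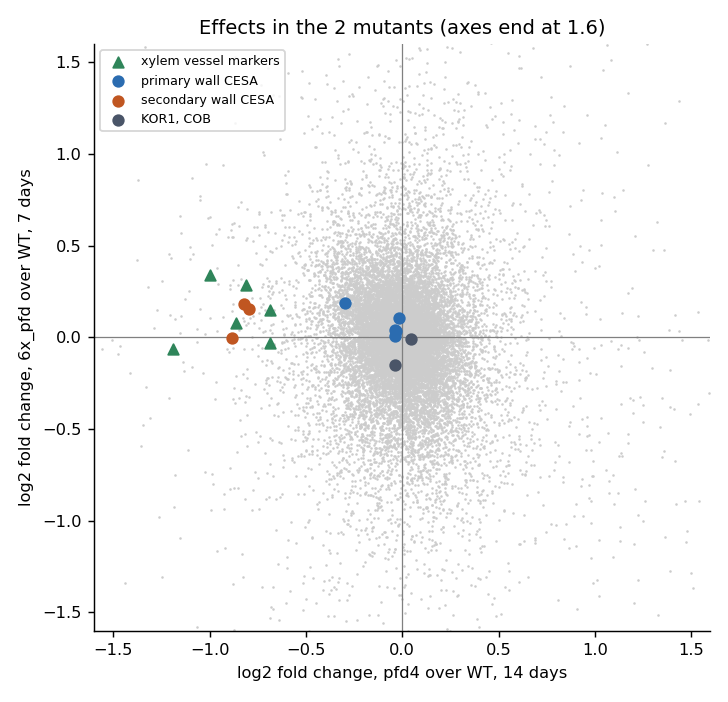
Log2 fold change in 6x_pfd at 7 days against that in pfd4 at 14 days for the 18053 genes of both tables (grey; 365 lie outside the axes, which end at 1.6), with the members and the xylem vessel markers. The secondary wall CESA genes and the xylem vessel markers lie left of 0 at -0.69 or below on the pfd4 axis and between -0.07 and 0.34 on the 6x_pfd axis.

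The members' proportions were read from levels per 1000 coding bases. The secondary wall genes made up 4.66% of the summed level of the 8 CESA genes in WT and 2.79% in pfd4 at 14 days, and 6.08% in WT and 6.21% in 6x_pfd at 7 days. Within the secondary set the proportions barely moved: CESA4, CESA7 and CESA8 made up 39.7%, 29.4% and 30.9% of it in WT and 38.5%, 30.3% and 31.3% in pfd4. At 7 days they made up 39.2%, 31.2% and 29.7% in WT and 36.4%, 32.3% and 31.3% in 6x_pfd. The ratio of CESA1 to CESA3, the obligate pair of the primary wall complex, was 1.09 in WT and 1.10 in pfd4, and 1.03 in WT and 1.07 in 6x_pfd. CESA2, CESA5 and CESA6 together were 1.72 times the level of CESA1 in WT at 14 days, 1.599 times in pfd4, 1.29 times in WT at 7 days and 1.255 times in 6x_pfd. CESA5 held 35.0% of that CESA6-type sum in WT and 31.0% in pfd4, and 22.1% in WT and 24.2% in 6x_pfd. These shares are values without an error, since no library can be looked at alone.

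Genes of the wider pathway and markers of the cells that make secondary walls are given for comparison, as counts called, with their median. Over all tested genes 7.75% were called in pfd4. Of 7 xylem vessel markers, 6 were in the pfd4 table and all 6 were called lower, with a median log2 fold change of -0.84 per the authors' deposited table, and VND7, a switch of vessel formation, was in neither table. Their summed implied level was 3833 normalized counts in WT and 2154 in pfd4. XCP2, a xylem peptidase, was at -0.86 ± 0.18, LAC17, a lignin laccase, at -0.9998 ± 0.24, TED6, a membrane protein of differentiating vessels, at -1.19 ± 0.30, and IRX9, a xylan synthase, at -0.81 ± 0.22 per the authors' deposited table. The other two, XCP1 (-0.69 ± 0.20) and LAC4 (-0.69 ± 0.20), were called as well per the authors' deposited table. The values of the secondary wall CESA genes lie inside the range of these markers. None of 3 procambium markers passed (median -0.00, summed level 2602 in WT and 2600.3 in pfd4), nor did any of 3 phloem markers (median -0.13, summed level 5749 and 4929) per the authors' deposited table. PXY, the receptor of vascular stem cells, was at -0.00 ± 0.09 and ATHB8 at -0.06 ± 0.10 per the authors' deposited table. WOX4, the third of these markers, was higher at 0.53 ± 0.20, short of the threshold (unadjusted p = 0.00872, adjusted p = 0.0870) per the authors' deposited table. Of 5 markers of the root endodermis, 2 were called lower, or 1 with equal totals, with a median of -0.66 per the authors' deposited table. Their summed level was 1100.0 in WT and 763 in pfd4. CASP2, which scaffolds the Casparian strip, was at -0.66 ± 0.16 (adjusted p = 0.000823) per the authors' deposited table. The part of xylem or root cell number in the fall of CESA4, CESA7 and CESA8 was not tested.

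Of 12 genes for xylan, lignin and other parts of secondary walls, 5 were called lower and 1 higher in pfd4, with a median of -0.52 per the authors' deposited table. Besides LAC17, IRX9 and LAC4, which are also on the xylem list, these were LAC11, a laccase (-1.32 ± 0.33), and FLA11, an arabinogalactan protein of secondary walls (-0.50 ± 0.14) per the authors' deposited table. FRA8, a glycosyltransferase of xylan synthesis, went the other way at 0.39 ± 0.11 (adjusted p = 0.0107) per the authors' deposited table. Of 14 regulators of secondary walls, 7 were in the pfd4 table, and VND6, a switch of metaxylem vessels (-0.88 ± 0.27), and MYB58, an activator of lignin genes (-0.96 ± 0.30), were called lower per the authors' deposited table. MYB46 was at -0.63 ± 0.28 (adjusted p = 0.171) per the authors' deposited table. Both called regulators were sparse, with mean normalized counts of 63.6 for VND6 and 45.7 for MYB58. CTL2, a chitinase-like protein of secondary walls, was called lower (-0.61 ± 0.18, adjusted p = 0.0123), the one call among 11 other genes of cellulose synthesis and wall sensing, whose median was -0.05 per the authors' deposited table. No gene was called among 12 in the table of the genes that accompany the complex (median -0.15), 6 COBRA-like genes (median -0.11) or 3 CSLD genes (median -0.15) per the authors' deposited table. Among them CSI1, which tethers the complex to microtubules, was at -0.10 ± 0.07, and COBL4, the COBRA-like protein of secondary walls, at -0.40 ± 0.20 (adjusted p = 0.232) per the authors' deposited table.

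In 6x_pfd 33.6% of all tested genes were called, and the lists below were not tested against that share. There the xylem vessel markers had a median of 0.11 and 1 of 6 passed, LAC17, which was higher (0.34 ± 0.13, adjusted p = 0.0233) per the authors' deposited table. Their summed implied level was 7874 normalized counts in WT and 8389 in 6x_pfd. The difference between the mutants passed for all 6, higher in 6x_pfd, as it did for CESA4, CESA7 and CESA8. No procambium marker (median 0.00) or endodermis marker (median -0.04) passed, and of the phloem markers SUC2, the sucrose transporter of companion cells, was lower (-0.84 ± 0.09) per the authors' deposited table. Among 8 regulators in the table, MYB63, an activator of lignin genes (0.87 ± 0.24), and SND3, a NAC factor of secondary walls (0.34 ± 0.14), were higher per the authors' deposited table. Of the 12 xylan and lignin genes LAC17 was higher and FLA12, an arabinogalactan protein, lower (-0.69 ± 0.16), with a median of 0.10 per the authors' deposited table.

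The counts called among genes that act beside the primary wall complex in 6x_pfd stand beside 33.6% of all genes called there, and the lists were not tested against that share or against the members. Of 12 other genes of cellulose synthesis and wall sensing, 5 were called lower and 1 higher, with a median of -0.11 per the authors' deposited table. CTL1, a chitinase-like protein needed for cellulose in growing tissue, was at -0.50 ± 0.06, THE1, a receptor kinase that senses cellulose defects, at -0.64 ± 0.10, and the receptor kinase FEI1 at -0.42 ± 0.08 per the authors' deposited table. SUS1, a sucrose synthase, was at 0.79 ± 0.10 per the authors' deposited table. The remaining lower genes were SOS5 (-0.38 ± 0.12) and FEI2 (-0.23 ± 0.09) per the authors' deposited table. Of the 12 genes that accompany the complex 3 were called lower, AT5G06970 (-0.48 ± 0.08), CSI1 (-0.18 ± 0.06) and KLCR1, a kinesin light chain-related protein (-0.22 ± 0.08), with a median of -0.13 per the authors' deposited table. With equal totals CSI1 (-0.11), KLCR1 (-0.14) and FEI2 (-0.15) no longer passed. All 3 CSLD genes in the table were called: CSLD2 (0.31 ± 0.10) and CSLD3 (0.28 ± 0.09), which act in root hairs, were higher, and CSLD5, which acts in dividing cells, was lower (-0.45 ± 0.11) per the authors' deposited table. Of 7 COBRA-like genes, COBL9, which acts in root hairs, was higher (0.52 ± 0.17) per the authors' deposited table. COBL2 was lower (-0.31 ± 0.13, adjusted p = 0.0495) per the authors' deposited table, a call lost with equal totals. A gene that was low in 1 group may be listed only because the other group was high, since the tables were filtered on a minimum RPKM.

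**Figure D5:**
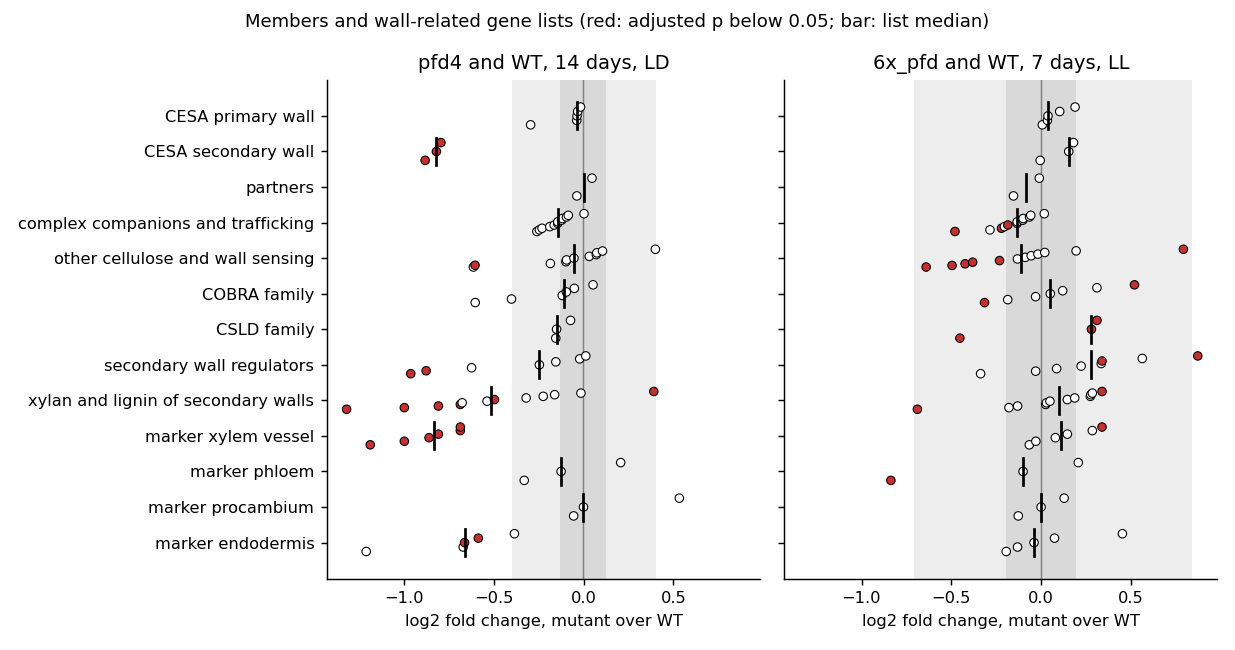
Log2 fold change, mutant over WT, of the members and of each list of related genes and markers in both experiments; points are genes, red where the adjusted p is below 0.05, black bars are list medians, and the grey bands hold the middle 50% and 90% of all genes. In pfd4 the medians of the secondary wall CESA genes (-0.82) and the xylem vessel markers (-0.84) lie left of the bands. So do those of the root endodermis markers (-0.66) and the xylan and lignin genes (-0.52). In 6x_pfd the medians of these lists are, in the same order, 0.15, 0.11, -0.04 and 0.10.

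The members can be told apart by sequence. Of the 50-base stretches of coding sequence, 1 of 3161 of CESA5 and 1 of 3206 of CESA6 occurs in the other gene, and none of the other 8 genes shares a stretch with any annotated transcript. CESA9 and CESA10, the remaining CESA genes, were in neither table. Neighbouring genes overlap the ends of several members. For CESA8, 481 of 3347 exon bases (14.4%) lie on the opposite strand to exons of AT4G18770, which is in neither table, and 81 to the noncoding AT4G06845. CESA4 shares 17 exon bases on its own strand with AT5G44020, whose log2 fold change was 0.05 ± 0.20 in pfd4 and -1.09 ± 0.11 in 6x_pfd per the authors' deposited table. On the opposite strand CESA4 shares 65 exon bases (1.72%) with AT5G44040. The log2 fold change of AT5G44040 was -0.08 ± 0.11 in pfd4 and -0.58 ± 0.10 in 6x_pfd per the authors' deposited table. For CESA1, CESA3, CESA7 and KOR1 the overlap is with the opposite strand and at most 1.94% of exon bases. No gene overlaps CESA2, CESA5, CESA6 or COB. The libraries were stranded, and the sources used here do not say whether reads were counted by strand.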

How the data were processed

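Stranded mRNA libraries of 12 whole-seedling samples, 3 in each of 4 groups, were compared as mutant against the WT of the same experiment, with groups taken from the titles. The labels call the samples biological and do not say how they were grown apart. The p-values therefore set the difference between groups against the spread between these samples. Cutadapt, HISAT2, HTSeq and DESeq2 and the build TAIR10 are named, with no versions, per the submitters' processing notes. Per the file headers, the deposited tables list the mean normalized count of every gene over 6 samples (a signal), its log2 fold change and SE, the Wald score, and the p-value before and after adjustment. Their names state a minimum RPKM, and how it was applied is not known here.

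No values per library are in these tables, so the planned count model, the replicate block and leaving out a library were not run, and depth per library is unknown. Calls are the authors' deposited DESeq2 adjusted p below 0.05, which matched a Benjamini-Hochberg adjustment over each table. Group means were implied from the mean and the fold change. Coding lengths, gene models and sequences were read by locus ID from RefSeq on TAIR10.1. The difference between mutants was a two-sided Wald test on fold changes and SEs of all genes with a p-value in both tables. It used Benjamini-Hochberg adjustment (Python 3.11.15, SciPy 1.17.1). Its code was run on fold changes simulated with the deposited SEs, which cannot show whether those SEs are accurate.

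The members, lists and tests were chosen with earlier results of these data known. Named are all members, PFD4 and up to 4 genes with the smallest p among those called in each list. XCP1, LAC4, FLA11, MYB46, CSI1 in pfd4, COBL4, PXY, ATHB8, WOX4, SOS5, FEI2, VND7 and the overlapping genes were chosen after their values were seen. The values of 1 listed gene are not reported here. Alternatives were an adjusted p of 0.01, a log2 fold change of size 1 or more, centring on the median or on equal totals, a minimum of 1 CPM and a test against a change of 25%.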

Additional observations from a re-analysis of the deposited data

Results flagged for a closer look

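The effect in 6x_pfd at 7 days differed from that in pfd4 at 14 days for 4 members, by the Wald test of the difference itself. That test called 23.8% of the 18035 genes tested in both comparisons. The log2 fold change in 6x_pfd minus that in pfd4 was 0.88 for CESA4, 0.95 for CESA7, 1.002 for CESA8 and 0.49 for CESA5. In pfd4 all 4 values were below 0, and in 6x_pfd 3 were above 0 and CESA4 was at -0.00, or at 0.07 with equal totals. The xylem vessel markers had a median of -0.84 in pfd4 and 0.11 in 6x_pfd, and their part in these differences was not tested. Genotype, age and growth condition cannot be told apart. Single libraries could not be looked at, so none was compared with the others of its group.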

How the results depend on the processing

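The calls of CESA4, CESA7 and CESA8 in pfd4 held at an adjusted p below 0.01, with both ways of centring and with the minimum of 1 CPM. The count of members called in pfd4 was 0 with a log2 fold change of at least 1 and 0 in the test against a change of 25%, both of which ask for a larger effect. In 6x_pfd the count was 2 with equal totals (CESA1 and CESA5) and 0 under the other alternatives. With equal totals 7040 of all 19380 tested genes were called in 6x_pfd, 4652 of them higher, against 6519 without that centring. Equal totals also reversed the sign of CESA4 (0.0741) and COB (0.0690) there, and moved the share of higher genes among all calls from 50.2% to 66.1%. Equal totals shift every fold change in 6x_pfd by the same amount, and the log2 ratio of totals in pfd4 was -0.00779. The difference between the mutants passed for 4 members, and for 3 at an adjusted p below 0.01, where CESA5 was lost. Among all genes, calls fell from 1423 to 835 at an adjusted p below 0.01, to 198 with the minimum fold change and to 165 in the test against 25% in pfd4. In 6x_pfd they fell from 6519 to 1186 with the minimum fold change and to 1779 in the test against 25%. For the difference they fell from 4299 to 2879 at an adjusted p below 0.01. No paired analysis was possible because the tables hold no values per library, and leaving out each replicate in turn, edgeR and DESeq2 on counts were not run for the same reason. The tables leave depth and the behaviour of single libraries unknown, and levels carry no error.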
